A study of Mus musculus with 23 samples.

Results

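The proteasome genes measured here are the protein-coding genes whose symbols begin Psma, Psmb, Psmc, Psmd, Psme, Psmf or Psmg followed by a number, kept where the mean normalized count over all libraries was 10 or more. The rule found 50 such genes among 22025 protein-coding gene identifiers (51912 identifiers in all) and kept 48. The 2 genes it dropped were Psma8, a testis-specific alpha subunit, at a mean of 9.37, and Psmb11, a catalytic subunit of the thymus, at 6.86. The lowest genes it kept were Psme2b at 25.1 and Psmb9 at 43.0. By role, 7 of the 48 are alpha subunits of the 20S core, 7 are its constitutive beta subunits, 3 are the immunoproteasome beta subunits Psmb8, Psmb9 and Psmb10, 6 are ATPases and 11 are non-ATPase subunits of the 19S cap, 3 are assembly chaperones of the cap, 4 are assembly chaperones of the core and 6 are activators or inhibitors of the core. The remaining gene, Psmc3ip, encodes a partner protein of meiotic recombination and is no subunit, although its symbol fits the pattern.

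The hippocampi came from wild type male C57BL/6 mice and were measured by RNA sequencing of poly(A)-selected RNA. There were 4 libraries of exercised fathers, given 40 minutes of treadmill running each day over 6 weeks, and 4 of sedentary fathers, kept without exercise; both were taken at 7 months of age. There were 7 libraries of offspring of exercised fathers and 8 of offspring of sedentary fathers, taken at 5.5 months. All fathers had been through behavioural tests and breeding, and the offspring through the same behavioural tests. Values are the authors' normalized counts, that is, reads per gene divided by 1 size factor per library, and the libraries held between 33667580 and 55172616 reads assigned to genes.

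The proteasome is the protease that degrades most ubiquitin-tagged proteins in the cytosol and nucleus. Its 20S core is a barrel of alpha and beta rings that hides the catalytic sites inside, and the 19S cap recognises the ubiquitin chain, removes it and unfolds the substrate with a ring of ATPases. The catalytic work is done by Psmb5, which cuts after hydrophobic residues, Psmb6, which cuts after acidic residues, and Psmb7, which cuts after basic residues. Interferon-gamma induces Psmb8, Psmb9 and Psmb10, which take the places of Psmb5, Psmb6 and Psmb7 to form the immunoproteasome, best known for making peptides for antigen presentation. In neurons, proteasome activity is known to take part in synaptic plasticity and memory, and the study asked how gene expression in the hippocampus differs after the fathers' exercise, in the fathers themselves and in their sons.

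The hippocampus expressed the constitutive proteasome at far higher levels than the immunoproteasome, in all 4 groups. Because longer transcripts give more reads, levels are compared between genes per 1000 bases of the principal transcript. On that scale the mean level over 23 libraries was 3111 for Psmb5, 2973 for Psmb6 and 2944 for Psmb7, against 65.1 for Psmb8, 31.8 for Psmb9 and 508 for Psmb10. Psmb5 was thus 47.8 times Psmb8, Psmb6 was 93.6 times Psmb9 and Psmb7 was 5.79 times Psmb10. With the longest annotated transcript as the length in place of the principal transcript, the same ratios were 56.0, 165 and 2.36. Among the 6 catalytic subunits, Psmb10 thus stood between the 3 constitutive ones and Psmb8. Psmb8 and Psmb9 lie close together on chromosome 17. Psmb9 overlaps Tap1 on the other strand and Psmb8 overlaps the predicted gene Gm20496, and the strand setting of the counting is not given in the sources used here, so part of their reads could belong to those neighbours. The same holds for other members that overlap a gene on the other strand. Among them are Psmd9 (Hpd), Psmb7 (Nek6), Psmd1 (Htr2b), Psmc3 (Slc39a13), Psmd13 (Sirt3), Psmd5 (Cutal), Psme1 (Emc9) and Psmc3ip (Mlx). Some members overlap a gene on their own strand, such as Psmd1 with Gm21972 and Psme2b with 9930111J21Rik1, which a strand setting would not resolve.

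**Figure D1:**
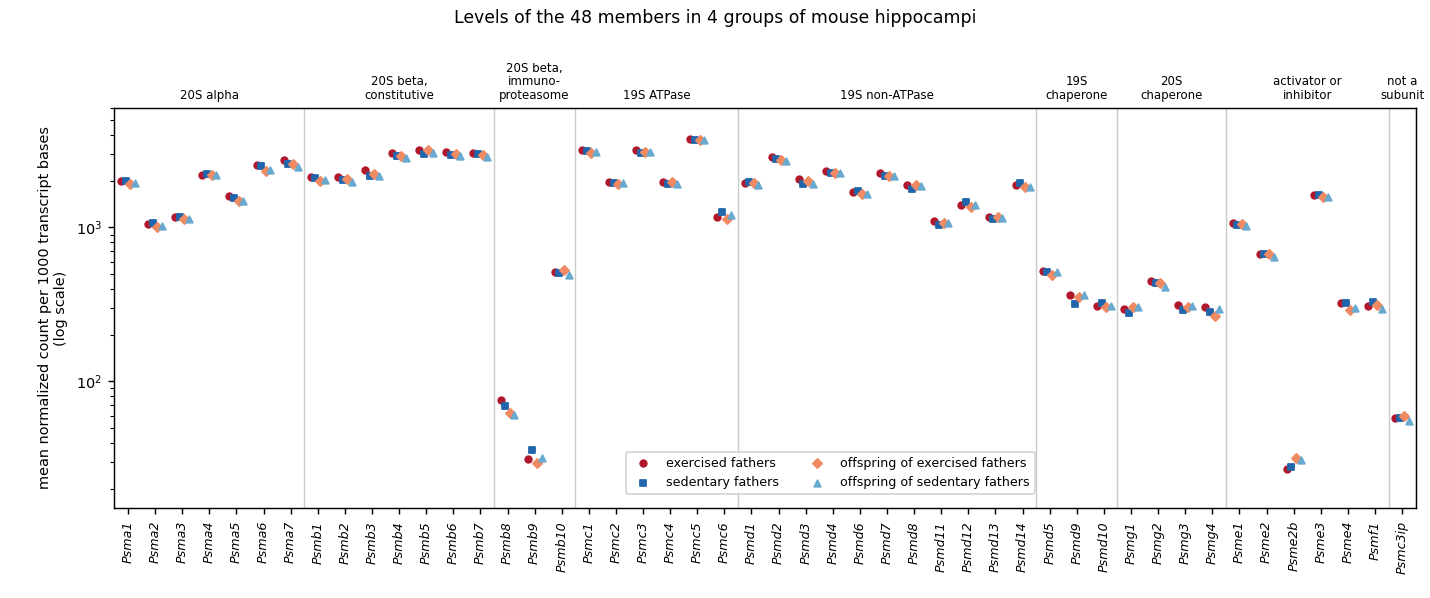
Mean normalized count per 1000 bases of the principal transcript (log scale) of the 48 members, by role, with 1 point for each of the 4 groups. The 4 groups lie close together for nearly every gene, and Psmb8, Psmb9 and Psme2b lie far below the constitutive 20S and 19S subunits, which run between 1028 and 3725.

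The constitutive core and cap subunits lay within a narrow band. The 7 alpha subunits ran from 1028 (Psma2) to 2569 (Psma7) per 1000 bases and the 7 constitutive beta subunits from 2040 (Psmb2) to 3111 (Psmb5), so that the highest of these 14 core subunits was 3.03 times the lowest. The 6 cap ATPases ran from 1187 (Psmc6) to 3725 (Psmc5), and the 11 non-ATPase subunits from 1073 (Psmd11) to 2758 (Psmd2, a scaffold of the cap's base). Among the activators, Psme3, the nuclear activator, was highest at 1593, above Psme1 at 1042 and Psme2 at 662, the interferon-inducible pair, and Psme4, a large activator known for histone degradation, was at 306. Psmf1, a protein that binds the core and inhibits it in vitro, was at 309. The assembly chaperones, which guide the particle together and then leave it, were lower, from 287 (Psmg4) to 429 (Psmg2) for the core and from 310 (Psmd10) to 508 (Psmd5) for the cap. Psme2b, at 30.0, is a near-copy of Psme2, so reads could have been split between them and its value is uncertain.

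The upstream sequences of the constitutive and the immunoproteasome subunits are shown because these classes differ most in level. RefSeq promoter entries (GRCm38.p6) matched 41 of the 48 members with 44 entries of 250 bases before to 50 after the transcription start; Psmb1, Psmb2, Psmb7, Psmc3, Psmd3, Psmd7 and Psmg2 had no entry. The stretches printed for Psmb8 and Psmb9 lie inside their GENCODE M21 genes (chr17:34197721-34201454 and chr17:34181987-34187764). They thus precede the start of the RefSeq entry, not the outermost GENCODE start. The 250 bases before the RefSeq start of Psmb5 and Psmb6, then of Psmb8 and Psmb9, read as follows, with matches to the 4 motifs named next in capitals.
Psmb5, chr14:54617996-54618245, minus strand: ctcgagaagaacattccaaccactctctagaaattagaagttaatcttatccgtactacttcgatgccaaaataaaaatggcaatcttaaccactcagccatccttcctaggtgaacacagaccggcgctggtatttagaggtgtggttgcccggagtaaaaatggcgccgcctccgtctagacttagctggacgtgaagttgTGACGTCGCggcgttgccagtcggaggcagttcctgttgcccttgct
Psmb6, chr11:70525107-70525356, plus strand: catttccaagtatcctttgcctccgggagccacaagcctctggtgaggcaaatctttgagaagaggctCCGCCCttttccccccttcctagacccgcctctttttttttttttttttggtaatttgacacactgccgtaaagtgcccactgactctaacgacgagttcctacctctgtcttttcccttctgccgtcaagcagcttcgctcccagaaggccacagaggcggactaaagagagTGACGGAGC
Psmb8, chr17:34197945-34198194, plus strand: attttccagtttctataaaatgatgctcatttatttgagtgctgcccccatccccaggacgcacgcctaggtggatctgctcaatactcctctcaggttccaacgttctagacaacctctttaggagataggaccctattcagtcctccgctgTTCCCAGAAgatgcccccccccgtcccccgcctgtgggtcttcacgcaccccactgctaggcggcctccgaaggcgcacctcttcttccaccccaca
Psmb9, chr17:34187331-34187580, minus strand: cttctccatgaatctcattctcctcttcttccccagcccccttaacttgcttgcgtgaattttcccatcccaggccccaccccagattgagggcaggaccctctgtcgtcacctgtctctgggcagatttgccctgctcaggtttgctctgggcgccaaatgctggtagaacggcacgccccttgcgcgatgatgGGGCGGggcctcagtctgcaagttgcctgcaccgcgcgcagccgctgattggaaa

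The 4 motifs were searched on both strands of the 300 bases. The antioxidant response core TGACNNNGC, the letters bound by the factor Nfe2l1 or Nfe2l2 that raises proteasome genes under stress, was in 6 of the 44 member promoters (13.6%) and in 12.4% of all 32851 promoters of the same length. Psmb5 held it as TGACGTCGC from base -47 and Psmb6 as TGACGGAGC from base -9, counting the base before the start as -1; the others were Psmc6, Psmd9, Psmd12 and Psme4. The interferon-stimulated response element, searched as a pair of GAAA separated by any 2 bases, was in 5 member promoters (11.4%, Psmb3, Psmd4, Psmd9, Psme1 and Psmg4) and in 3.44% of all promoters. The gamma-activated site TTCNNNGAA was in 3 (6.82%, Psmb8, Psmd2 and Psmg1) and in 8.30% of all; in Psmb8 it was TTCCCAGAA from base -97. The GC box GGGCGG was in 24 (54.5%) and in 35.7% of all, with Psmb6 and Psmb9 among the holders. These are matches of letters, not measured binding sites.

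No proteasome gene was called between exercised and sedentary fathers. With limma on log2(normalized count + 1) and Benjamini-Hochberg adjustment over 17493 genes, 0 of the 48 members had an adjusted p of 0.05 or less, and the share over all genes tested was 0%. At an unadjusted p under 0.05 there were 6 members, 5 higher and 1 lower in exercised fathers, against 8.01% of all genes. On the recovered reads, edgeR and DESeq2 each gave 5 such members and called 0 members, while of all genes edgeR called 0 and DESeq2 66. The log2 fold change was above 0 for 35 of the 48, with a median of 0.03, against 51.2% of all genes and a median of 0.00. With the trend of each library with transcript length removed it was above 0 for 29 members (median 0.02), and with the trend with GC content removed for 36 (median 0.03). The groups of 2 members, Psmd8 and Psmd12, did not overlap, where 5% of all genes did so. The smallest adjusted p of a member was 0.539. In bulk tissue, fewer cells of a type and less RNA per cell cannot be told apart.

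Among the catalytic subunits, the constitutive ones differed between exercised and sedentary fathers by less than 10%. Psmb5 had 2786, 2853, 2823 and 3047 normalized counts in exercised fathers, against 2648, 2623, 2710 and 2835 in sedentary fathers. The groups overlapped through 1 library of the sedentary fathers. The log2 fold change was 0.09 ± 0.04 (SE), with a 95% interval of the difference from -0.24% to 13.5% and a limma adjusted p of 0.619. Psmb6 averaged 2449 ± 38.8 in exercised and 2362 ± 61.8 in sedentary fathers (n = 4 each, SD), a log2 fold change of 0.05 ± 0.03, and Psmb7 averaged 3511 ± 140 and 3474 ± 107, a log2 fold change of 0.02 ± 0.04. With the GC trend removed, the log2 fold changes of Psmb5 and Psmb6 were 0.04 and 0.01; with the length trend removed, they were 0.06 and 0.02.

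The immunoproteasome subunits were measured less precisely. Psmb8 had 107, 126, 137 and 121 normalized counts in exercised fathers, against 99.98, 118, 112 and 123 in sedentary fathers, and the groups overlapped over most of their range. Its log2 fold change was 0.11 ± 0.11 (limma adjusted p = 0.794). Psmb9 had 29.2, 36.9, 48.2 and 54.3 in exercised fathers, against 34.7, 52.1, 42.2 and 66.0 in sedentary fathers. Its 95% interval, from -40.9% to 27.4%, was the widest of the 6 catalytic genes, so a difference of that size was not detectable with 4 libraries a group. Psmb10 averaged 670 ± 32.7 in exercised and 664 ± 39.8 in sedentary fathers (n = 4 each, SD), a log2 fold change of 0.01 ± 0.06, which took the other sign under some alternative settings.

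**Figure D2:**
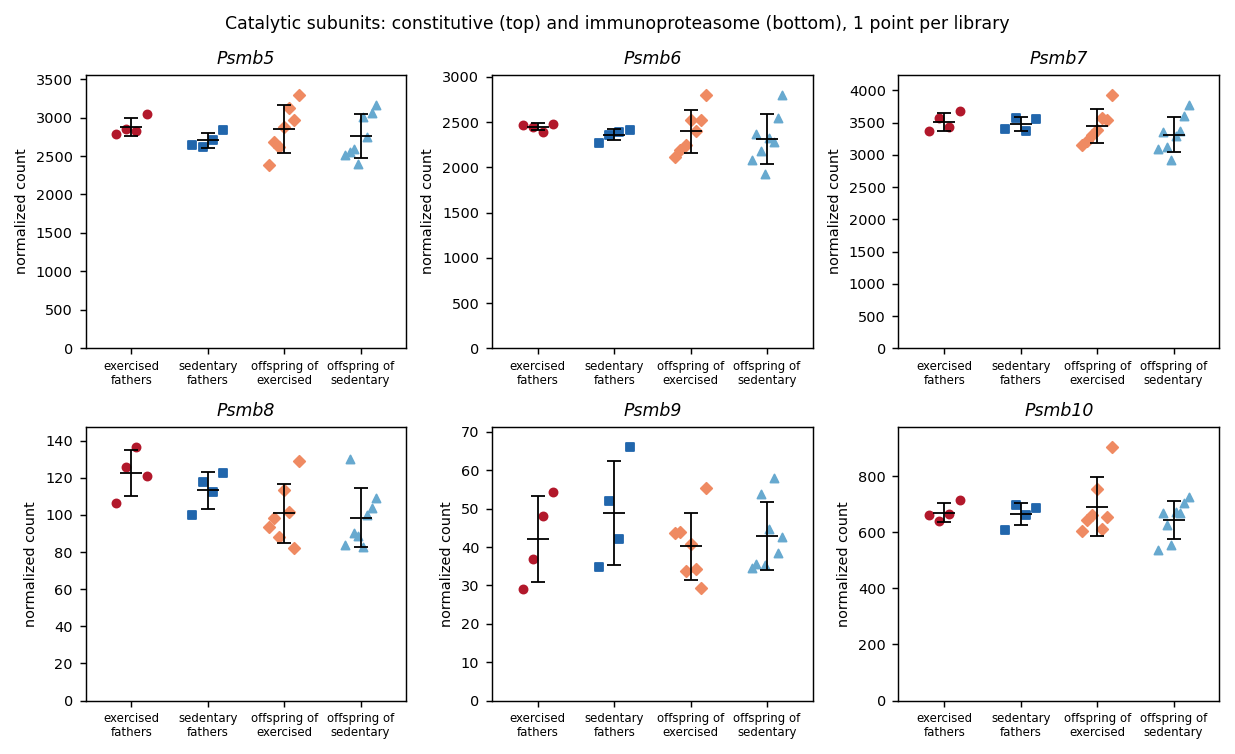
Normalized counts of the 3 constitutive catalytic subunits (top) and the 3 immunoproteasome subunits that replace them (bottom), 1 point per library, with the mean and SD of each group (n = 4, 4, 7 and 8). Every panel starts at 0 and has its own scale. The groups overlap in every panel, and the offspring of both kinds spread more widely than the fathers for every subunit shown except Psmb9.

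Several of the members with the smallest p in the fathers were subunits or chaperones of the cap. The 48 members include 6 ATPases, 11 non-ATPase subunits and 3 assembly chaperones of the cap, so this is a large class to begin with. Psmd9, a chaperone that helps assemble the cap's base, had 856, 958, 982 and 978 normalized counts in exercised fathers, against 813, 808, 824 and 876 in sedentary fathers. Only the lowest exercised library fell inside the sedentary range. Its log2 fold change was 0.18 ± 0.06, a difference of 13.5%, at an unadjusted p of 0.00931 and a limma adjusted p of 0.539. Psmd8, a lid subunit, averaged 2903 ± 57.4 in exercised and 2733 ± 78.0 in sedentary fathers (n = 4 each, SD), with every exercised library above every sedentary one. Its log2 fold change was 0.09 ± 0.04 (limma adjusted p = 0.595). Psmd3, another lid subunit, had a log2 fold change of 0.11 ± 0.05 (limma adjusted p = 0.612), which was 0.05 with the GC trend removed and 0.07 without replicate 4 of the exercised fathers. The structural core subunit Psmb3 had one of 0.13 ± 0.06 (limma adjusted p = 0.618).

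Psmc6, an ATPase of the cap's base, had the only unadjusted p under 0.05 among the members that were lower in exercised fathers. It had 2655, 2715, 2630 and 2482 normalized counts in exercised fathers, against 2948, 2833, 2675 and 2851 in sedentary fathers. The groups overlapped through 1 sedentary library. The log2 fold change was -0.11 ± 0.04, a difference of -7.30% (limma adjusted p = 0.584). Psmd12, a lid subunit, was at 2683 ± 33.8 in exercised and 2768 ± 72.7 in sedentary fathers (n = 4 each, SD), a log2 fold change of -0.04 ± 0.03. Psmf1 was at 1180 ± 37.4 and 1245 ± 84.8, a log2 fold change of -0.08 ± 0.05 with a limma adjusted p of 0.725.

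In the sons, again no proteasome gene was called between offspring of exercised and offspring of sedentary fathers. Of 48 members 0 had a limma adjusted p of 0.05 or less, and of all 17522 genes tested 0% had; edgeR also called 0 members and 0 genes, and DESeq2 0 members and 39 genes. At an unadjusted p under 0.05 there was 1 member, by limma, edgeR and DESeq2 each, against 9.85% of all genes by limma. The log2 fold change was above 0 for 26 of 48, with a median of 0.01, against 49.6% of all genes and a median of 0.00. It was above 0 for 23 members with the length trend removed (median -0.01) and for 34 with the GC trend removed (median 0.02), so the balance of signs depended on the scaling. The groups of every member overlapped, and 0.148% of all genes had groups that did not.

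That member was Psmc6, the ATPase that was also lower in exercised fathers, here at an unadjusted p of 0.00975 and a limma adjusted p of 0.435. In the 7 offspring of exercised fathers its lowest, median and highest normalized counts were 2383, 2542 and 2621, against 2596, 2642 and 2875 in the 8 offspring of sedentary fathers. The highest library of the offspring of exercised fathers was above the lowest of the other group, so the groups overlapped in a narrow range. The log2 fold change was -0.10 ± 0.03, a difference of -6.42% with a 95% interval from -10.8% to -1.81%. With each library's trend with the GC content of transcripts removed, the log2 fold change of Psmc6 was -0.04 in the offspring and -0.00 in the fathers; with the trend with transcript length removed, it was -0.11 and -0.12.

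The catalytic subunits differed between offspring groups by less than their spread. Psmb5 had 2387, 2879 and 3296 normalized counts (lowest, median, highest) in offspring of exercised fathers, against 2398, 2670 and 3161 in offspring of sedentary fathers. The ranges nearly coincided, and the log2 fold change was 0.05 ± 0.07, with a 95% interval of the difference from -6.95% to 15.1%. The log2 fold change was 0.05 ± 0.07 for Psmb6, 0.06 ± 0.06 for Psmb7, 0.03 ± 0.11 for Psmb8, -0.09 ± 0.15 for Psmb9 and 0.09 ± 0.09 for Psmb10, each with a limma adjusted p of 0.729 or more. Psmb10 had 604, 655 and 903 in offspring of exercised fathers, against 536, 668 and 727 in offspring of sedentary fathers. Its highest value, 903, was that of 1 library, replicate 7 of the offspring of exercised fathers, without which its log2 fold change was 0.03.

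Other members with the smallest p were Psmf1, Psmd3 and Psmd1 on the higher side and Psmg4 and Psmd12 on the lower. Psmf1 averaged 1187 ± 54.7 in offspring of exercised and 1132 ± 55.5 in offspring of sedentary fathers (SD, n = 7 and 8), a log2 fold change of 0.07 ± 0.04 (limma adjusted p = 0.564). Psmd1, the large non-ATPase scaffold of the base, had a log2 fold change of 0.04 ± 0.03, and Psmd3 one of 0.06 ± 0.04. Psmg4, an assembly chaperone of the core, averaged 149 ± 21.8 and 164 ± 15.3. Its log2 fold change was -0.15 ± 0.09 (limma adjusted p = 0.601), which was -0.08 without replicate 1 of the offspring of exercised fathers. Psmd12 had a log2 fold change of -0.04 ± 0.03.

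**Figure D3:**
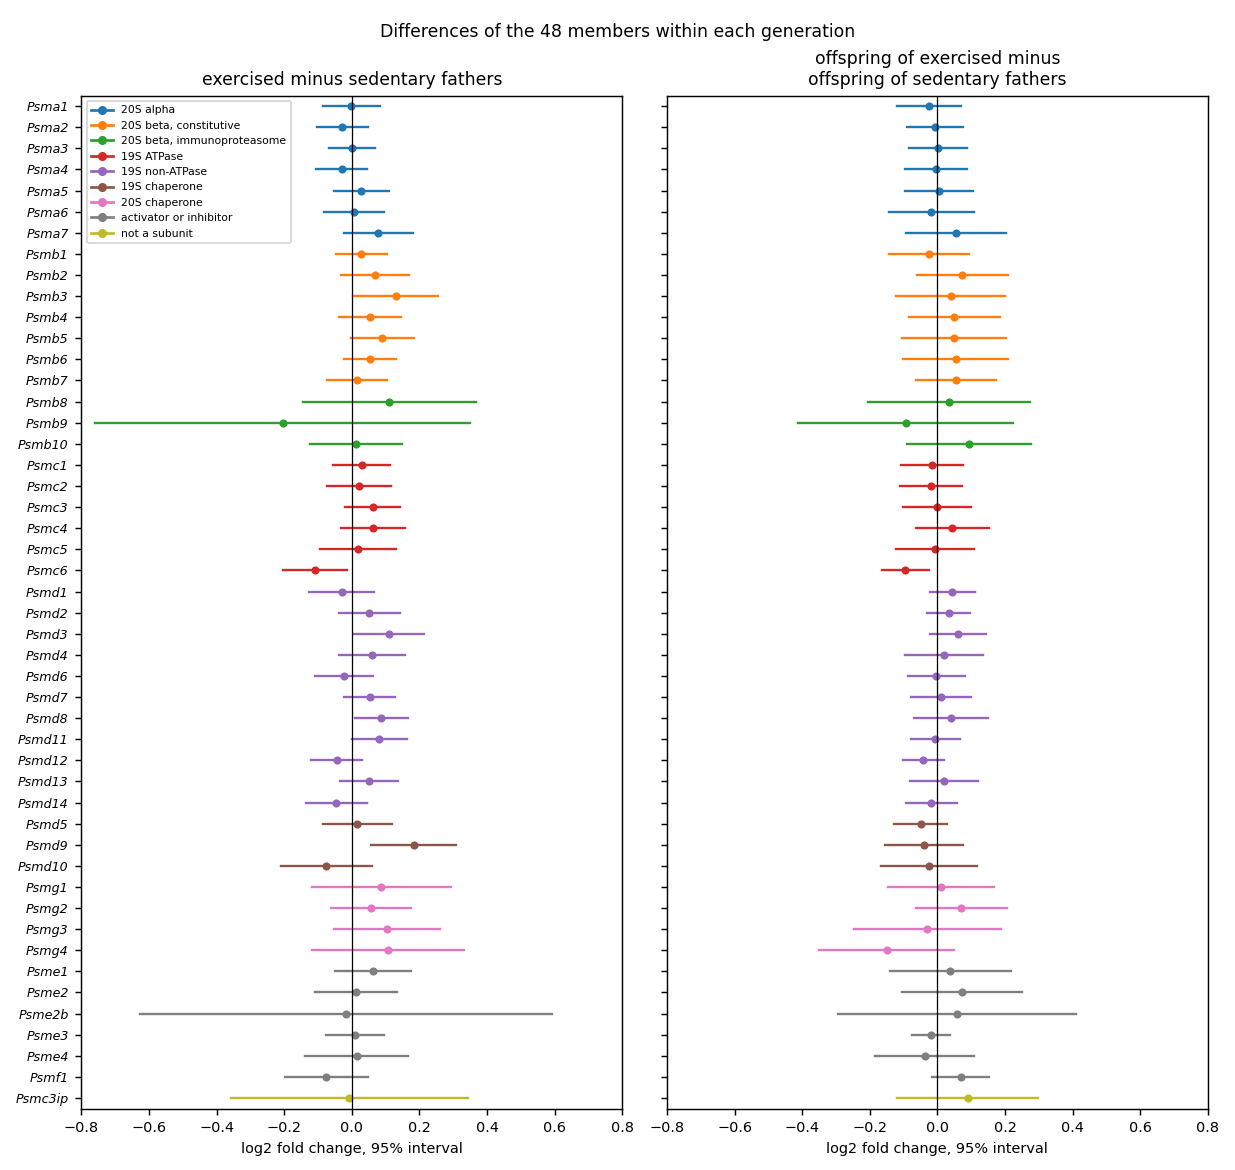
Log2 fold change of each of the 48 members with its 95% interval from limma, exercised minus sedentary fathers on the left and offspring of exercised minus offspring of sedentary fathers on the right, coloured by role. Most points lie within 0.2 of 0, and the widest intervals are those of Psmb9 and Psme2b, the members with the lowest counts.

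By role, no class held a called member in either generation. In the fathers, all 7 constitutive beta subunits and all 4 core chaperones had log2 fold changes above 0, with medians of 0.05 and 0.10, while the 7 alpha subunits had 4 above 0 and a median of 0.00. The 3 immunoproteasome subunits had a median of 0.01 and the 6 activators or inhibitors one of 0.01. In the offspring, 6 of the 7 constitutive beta subunits were above 0, with a median of 0.05, against 3 of the 7 alpha subunits, 1 of the 6 ATPases and 2 of the 4 core chaperones. With the length trend removed, 6 of the 7 constitutive beta subunits were above 0 in each generation, with medians of 0.02, and 2 of the 7 alpha subunits were. With the GC trend removed, all 7 alpha and all 7 constitutive beta subunits were above 0 in each generation. The mean log2 deviation of the 4 core chaperones ran from 0.0059 to 0.0967 in exercised and from -0.0829 to 0.0031 in sedentary fathers. These ranges did not overlap. With the length trend removed they were only just apart (-0.0262 to 0.0648 in exercised and -0.0493 to -0.0273 in sedentary fathers). The ranges of every other class overlapped in the fathers on both scales, and among single genes 5% had groups that did not overlap. No test of the core chaperones' mean was made, and it was not examined with the GC trend removed. In the offspring the ranges of the core chaperones overlapped.

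The balance between the immunoproteasome and the constitutive core was examined by the log2 ratio of each inducible subunit to the one it replaces, within each library, taken from normalized counts + 1, so that the size factor cancels except through the added 1. The log2 ratio of Psmb8 to Psmb5 averaged -4.55 ± 0.15 in exercised and -4.57 ± 0.11 in sedentary fathers (n = 4 each, SD), a difference of 0.02. That of Psmb9 to Psmb6 averaged -5.87 ± 0.40 and -5.61 ± 0.36, a difference of -0.26, which was -0.0946 without replicate 1 of the exercised fathers and -0.386 without replicate 1 of the sedentary fathers. That of Psmb10 to Psmb7 averaged -2.39 ± 0.06 and -2.39 ± 0.06. In the offspring of exercised and the offspring of sedentary fathers (n = 7 and 8), the ratios were -4.82 ± 0.19 and -4.80 ± 0.25 for Psmb8 to Psmb5, -5.89 ± 0.30 and -5.74 ± 0.30 for Psmb9 to Psmb6, and -2.33 ± 0.15 and -2.36 ± 0.07 for Psmb10 to Psmb7. With 1 library left out, the offspring difference of Psmb9 to Psmb6 ran from -0.203 to -0.0661. The ranges of the groups overlapped in all 6 comparisons, and the two-sided exact permutation p lay between 0.343 and 0.907, with 0.907 for each after Benjamini-Hochberg adjustment over the 6 tests. The smallest p that 4 against 4 libraries can give is 0.0286. The permutation treated each of the 7 and 8 offspring libraries as separate. Some of the 7 share the first part of their titles, and the ratios were not averaged over these.

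The exercise differences of the 2 generations were then set against each other in 1 fit over all 23 libraries, as the offspring difference minus the fathers' difference. Of 48 members 0 had a limma adjusted p of 0.05 or less, and of 18377 genes tested 0% had; at an unadjusted p under 0.05 there were 2 members, against 5.67% of all genes, and edgeR and DESeq2 gave 2 each and called 0. These were Psmd9, at a log2 difference of -0.22 ± 0.09 (limma adjusted p = 0.816), and Psmf1, at 0.14 ± 0.07 (limma adjusted p = 0.862). Psmd9 was higher in exercised than in sedentary fathers, while in the sons it averaged 912 ± 47.4 in offspring of exercised and 939 ± 83.4 in offspring of sedentary fathers (SD, n = 7 and 8). For the 6 catalytic subunits the difference lay between -0.08 (Psmb8) and 0.11 (Psmb9). Psmg4 had the most negative difference, -0.26 ± 0.15, and Psmd1, Psmd11 and Psmc3ip had differences of 0.07, -0.09 and 0.10.

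The clearest pattern among the subunits ran between libraries, not between groups. The 14 constitutive core subunits varied together from library to library of the offspring. This is given as the mean log2 deviation of the 14 genes from their own means over 23 libraries. It ran from -0.18 in replicate 1 to 0.17 in replicate 7 of the offspring of exercised fathers, and from -0.19 in replicate 4 to 0.13 in replicate 8 of the offspring of sedentary fathers. In replicates 1 and 2 of the offspring of exercised fathers 0 of the 14 genes were above their own mean, and in replicate 7 all 14 were. In the fathers the mean deviation ran only from 0.03 to 0.08 in exercised and from -0.01 to 0.06 in sedentary libraries. The 17 subunits of the cap's base and lid varied less widely, from -0.13 to 0.12 in the offspring of exercised and from -0.05 to 0.07 in the offspring of sedentary fathers.

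Psmb6 shows it for a single gene. It had 2110, 2401 and 2802 normalized counts (lowest, median, highest) in offspring of exercised fathers and 1929, 2301 and 2803 in offspring of sedentary fathers, while it ran only between 2396 and 2484 in exercised and between 2275 and 2414 in sedentary fathers. Its log2 SD within groups was 0.156 in the offspring and 0.031 in the fathers. The SD within groups was larger in the offspring for 40 of the 48 members and for all 14 constitutive core subunits, whose median SD was 0.119 in the offspring and 0.0459 in the fathers. The same held for 66.5% of all genes tested. It held for 91.4% of the 637 other protein-coding genes with a mean count of 1000 or more and a principal transcript of up to 1500 bases, for 76.8% of the 3154 such genes over 4000 bases and for 74.3% of all 7055 such genes, so the wider spread was shared by most abundant genes. The 8 members whose SD was larger in the fathers were Psmc6, Psmd1, Psmd2, Psme3 and Psmf1, whose transcripts are all over 2000 bases long, and the weakly expressed Psmb9, Psme2b and Psmc3ip. Psma2, Psma3, Psmd3, Psmd5, Psmd9, Psmd11 and Psme4 are also over 2000 bases and had the larger SD in the offspring. The part of transcript length in this split was not tested. With 8 libraries of fathers against 15 of offspring, no test of the difference in spread was made.

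The library order of the core subunits went with that of other abundant genes with short transcripts. The median principal transcript of the core subunits was 1163 bases long, against 2838 over all genes tested. In replicate 1 of the offspring of exercised fathers, other abundant genes with transcripts of up to 1500 bases had a median log2 deviation of -0.15 and those over 4000 bases one of 0.05; in replicate 7 these were 0.17 and -0.17. In the offspring of sedentary fathers they were -0.14 and 0.09 in replicate 4, and 0.13 and -0.08 in replicate 8. With each library's length trend removed, the mean deviation of the 14 core subunits ran from -0.10 to 0.05 in the offspring of exercised and from -0.08 to 0.05 in the offspring of sedentary fathers, and their median SD within groups was 0.0687 in the offspring and 0.0434 in the fathers. Psme4, whose 6491 bases make it the longest member, went the other way: it had 1538 normalized counts in replicate 7 of the offspring of exercised fathers, the lowest of all 23 libraries, and 2153 in replicate 1 of that group. The next longest members did not: in replicates 1 and 7 of that group Psmd5 (4397 bases) had 2004 and 2138, and Psmf1 (3809 bases) 1130 and 1286. The core subunits Psma2 (2911 bases) and Psma3 (2846 bases) kept nearly the same offspring SD with the length trend removed. It was 0.0743 before and 0.0720 after for Psma2, and 0.0772 and 0.0726 for Psma3. The sample barcodes of replicate 4 of the exercised fathers and replicates 7 and 8 among the offspring of sedentary fathers begin AD21, and these libraries had the highest mean deviations of the core subunits in their groups, 0.08, 0.10 and 0.13. The highest of all, 0.17 in replicate 7 of the offspring of exercised fathers, had a barcode outside that series. The sample titles of replicates 1 and 2 of the offspring of exercised fathers share their first part, and these were the lowest of their group, -0.18 and -0.10. Replicates 3 and 4 share theirs as well, at -0.05 and 0.03, and so do replicates 5 and 6, at 0.05 and 0.04, so that the 7 libraries hold 4 such title parts, while all 8 offspring of sedentary fathers differ in theirs. What sets this order was not tested.

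**Figure D4:**
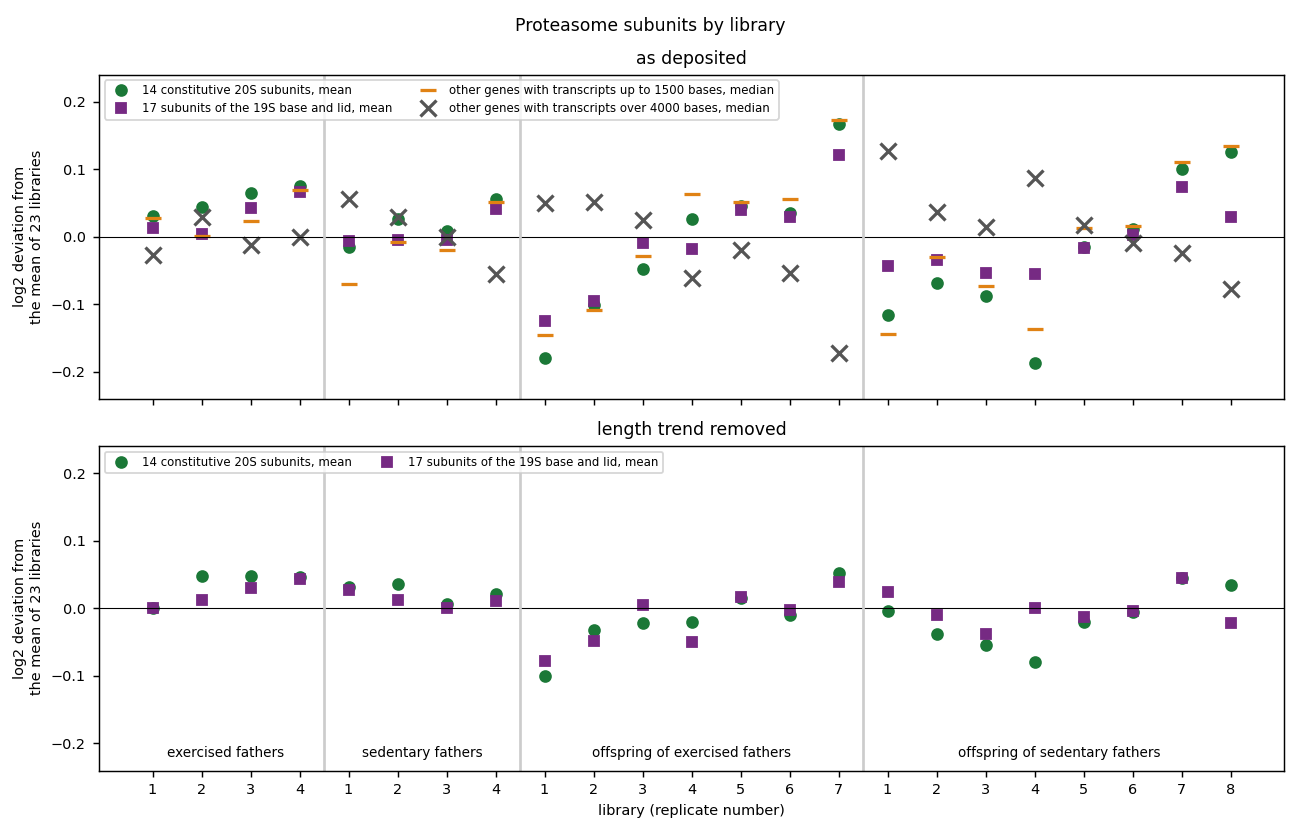
Mean log2 deviation of the 14 constitutive core subunits and of the 17 cap subunits from their own means, for each of the 23 libraries, with the median deviation of other abundant short and long transcripts (top) and after each library's length trend was removed (bottom). In the offspring, the core subunits run with the short transcripts and against the long ones, from -0.19 to 0.17, and the range narrows to between -0.10 and 0.05 in the lower panel.

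**Figure D5:**
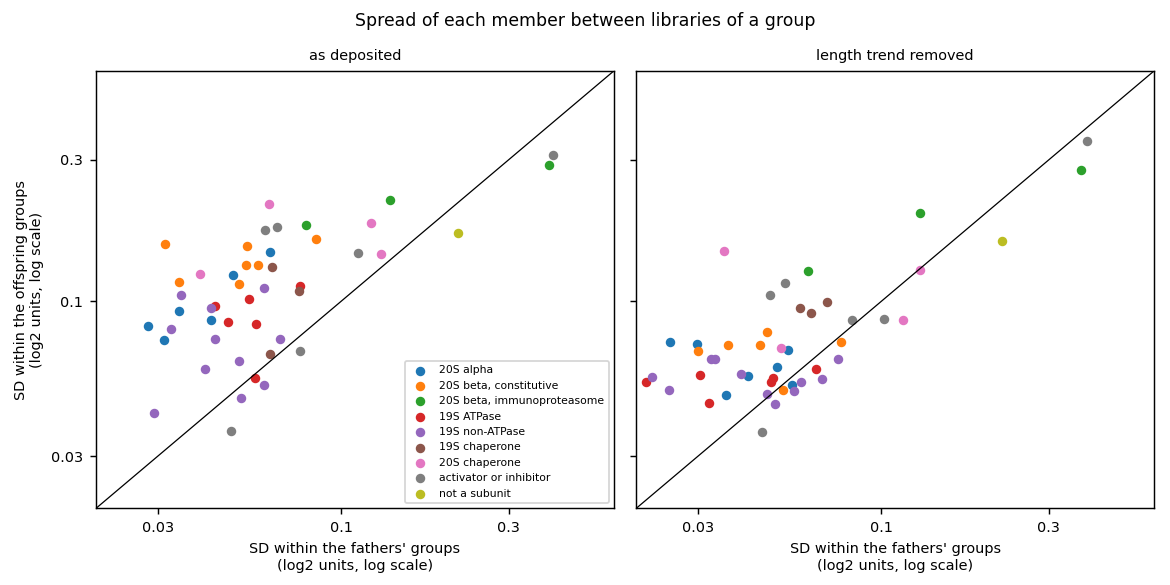
Log2 SD of each member between libraries of a group, pooled over the 2 fathers' groups (horizontal) and the 2 offspring groups (vertical), both on log scales, as deposited and with the length trend removed. On the left 40 of the 48 points lie above the line of equal spread, and on the right 32 do. With the length trend removed, the SD was larger in the offspring for 61.0% of all genes tested. It was larger for 65.2% of other protein-coding genes with a mean count of 1000 or more, and for 69.9% of those of up to 1500 bases.

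Sedentary fathers differ from the offspring of their group in age, generation and breeding at once, and exercised fathers in running as well; these cannot be told apart. Both tables were on 1 scale. Of 48 members 0 were called between exercised fathers and offspring of exercised fathers, where limma called 0.0653% of 18377 genes, and 0 between sedentary fathers and offspring of sedentary fathers, where it called 0.299%. The log2 difference, fathers minus offspring, was above 0 for 42 and 36 members, with medians of 0.05 and 0.04, against 53.5% and 50.6% of all genes. At an unadjusted p under 0.05 there was 1 member in the first comparison and 4 in the second, where 10.1% and 12.7% of all genes had one. The groups of 0 members did not overlap in the first and of 1 in the second, against 1.89% and 1.78% of all genes. These are the same libraries as in the exercise comparisons.

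Psmb8 was that 1 member of the first comparison, at 123 ± 12.4 in exercised fathers and 101 ± 16.0 in offspring of exercised fathers (SD, n = 4 and 7), a log2 difference of 0.29 ± 0.13 (limma adjusted p = 0.444). In the sedentary line it was at 113 ± 9.86 in fathers and 98.6 ± 16.0 in offspring (SD, n = 4 and 8), a log2 difference of 0.21 ± 0.12 (limma adjusted p = 0.501). Microglia markers were also higher in the fathers: 12 of 12 had a log2 difference above 0 in the exercised line, with a median of 0.14 and 4 at an unadjusted p under 0.05, and 10 of 12 in the sedentary line, with a median of 0.05 and 1 such gene. Of all genes, 53.5% and 50.6% were above 0 in these lines, and 10.1% and 12.7% had an unadjusted p under 0.05 by limma. The microglia list was lowest in replicates 1 and 2 of the offspring of exercised fathers, which share a first title part, at 10.07 and 10.03. The other libraries of that group ran from 10.20 to 10.32, and exercised fathers from 10.26 to 10.37. Of the interferon and antigen presentation list, 12 of 16 were above 0 in the exercised and 11 of 16 in the sedentary line. No gene of these lists was called by limma, and their part in the values of Psmb8 was not tested. The alpha subunits Psma6 and Psma5 were next in the exercised line, at 0.13 ± 0.06 and 0.09 ± 0.05, with Psme4 at 0.15 ± 0.08. Among the 6 members below 0 in that line, those with the smallest p apart from the catalytic subunits were Psme2b at -0.23 ± 0.22, Psmg1, a chaperone of the core's alpha ring, at -0.04 ± 0.09 and Psmc3ip at -0.04 ± 0.12. In the sedentary line, Psmf1 was at 0.14 ± 0.05 (limma adjusted p = 0.187), Psmd14, the deubiquitinase of the lid, at 0.09 ± 0.04, and Psmd1 at 0.08 ± 0.04, with each sedentary father above each of their group's 8 offspring. Psmd9 was at 831 ± 31.2 in sedentary fathers and 939 ± 83.4 in offspring of sedentary fathers (SD, n = 4 and 8), a log2 difference of -0.17 ± 0.06 (limma adjusted p = 0.199). Psmg1 was at -0.12 ± 0.09 and Psmd11 at -0.05 ± 0.04 in the sedentary line. The other 5 catalytic subunits lay between -0.03 (Psmb10) and 0.06 (Psmb9) in the exercised line and between -0.02 (Psmb5) and 0.17 (Psmb9) in the sedentary line.

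Genes that work with the proteasome were described alongside. Of 20 partner genes found (receptors, deubiquitinases, shuttles and the factors Nfe2l1 and Nfe2l2; Paaf1 was not analysed here), 13 genes of ubiquitin and its activation, and 16 of interferon signalling and antigen presentation, 0 were called by limma in any of the 5 comparisons. In the fathers their median log2 fold changes were 0.00, 0.01 and -0.04. Uchl5, a deubiquitinase of the cap, was at 1219 in exercised and 1346 in sedentary fathers, a log2 fold change of -0.14 ± 0.05 (limma adjusted p = 0.560), Adrm1, the ubiquitin receptor that binds it, at 0.12 ± 0.06, and the ligase gene Ube3a at -0.10 ± 0.04. Nlrc5, the activator of MHC class I genes, was at -0.37 ± 0.21 and Tapbp at 0.11 ± 0.10. At an unadjusted p under 0.05 there were 1 of the 20, 2 of the 13 and 0 of the 16 in the fathers, and 3, 5 and 1 in the offspring, where 8.01% of all genes in the fathers and 9.85% in the offspring had one. In the offspring the medians were -0.03, -0.05 and -0.06. Nfe2l2 had a log2 fold change of -0.19 ± 0.07 (limma adjusted p = 0.437), Ddi2, the protease that activates Nfe2l1, -0.13 ± 0.05, the conjugating enzyme gene Ube2n -0.08 ± 0.03 and Ifit1 -0.29 ± 0.18. In the difference between generations, Zfand2a was at -0.12 ± 0.05 and Ddi2 at -0.18 ± 0.08, Uba6 of the ubiquitin list at -0.18 ± 0.12, and the interferon list's Ifngr2 at -0.09 ± 0.06 and Nlrc5 at 0.34 ± 0.30. Between fathers and offspring, the smallest limma adjusted p was that of Zfand5, a proteasome-binding protein, at 0.13 ± 0.03 in the sedentary line (adjusted p = 0.0885), followed there by the shuttle gene Ubqln4 at -0.10 ± 0.03. Uba6, an activating enzyme of ubiquitin, was at -0.20 ± 0.08 in that line, Rps27a at 0.08 ± 0.06, Ifngr2, a chain of the interferon-gamma receptor, at -0.10 ± 0.04 and Nlrc5 at 0.45 ± 0.21. In the exercised line, Txnl1, a thioredoxin-like protein bound to the cap, was at 0.11 ± 0.03 (limma adjusted p = 0.212) and Nfe2l2 at 0.20 ± 0.09, with Ube2n at 0.08 ± 0.03, Ube2d3 at 0.05 ± 0.04, Ifit3 at 0.37 ± 0.17 and H2-D1 at 0.13 ± 0.09.

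The tissue markers bear on how far the groups are alike. The hippocampal neuron list (10 genes) had a mean log2 level between 12.9 and 13.3 in every library of the 4 groups. The choroid plexus list (16 genes) ran from 9.77 to 11.6 in exercised and from 6.63 to 11.4 in sedentary fathers, and from 7.00 to 11.3 and 6.93 to 11.3 in the offspring of exercised and of sedentary fathers. The thalamus and habenula list (12 genes) ran from 7.49 to 8.28 in exercised and from 7.37 to 9.23 in sedentary fathers, and from 7.49 to 7.91 and 7.54 to 8.18 in the 2 offspring groups. The microglia list (12 genes) ran from 10.3 to 10.4 in exercised and 10.2 to 10.3 in sedentary fathers, and from 10.03 to 10.3 and 10.2 to 10.3 in the offspring, and the endothelial list (12 genes) from 9.36 to 9.86, 9.66 to 9.90, 9.66 to 10.1 and 9.71 to 10.1 in the same order of groups. Of the endothelial genes, 11 of 12 were lower in exercised than in sedentary fathers (median log2 fold change -0.19, 4 at an unadjusted p under 0.05) and 12 of 12 in offspring of exercised than in offspring of sedentary fathers (median -0.12, 2 such genes). Of all genes, 51.2% and 49.6% had a log2 fold change above 0 in these 2 comparisons, and 8.01% and 9.85% an unadjusted p under 0.05 by limma. The genes of a list come from the same libraries and are not replicates. In exercised fathers the endothelial list was at 9.43 and 9.36 in replicates 1 and 4. It was at 9.81 and 9.86 in replicates 2 and 3, inside the sedentary range. The endothelial gene Cldn5 was called between fathers and offspring, at -0.57 in the exercised line (limma adjusted p = 0.0254) and -0.44 in the sedentary line (limma adjusted p = 0.0477). Limma called 0.0653% and 0.299% of all genes there. Of the choroid plexus genes, 16 of 16 were higher in exercised than in sedentary fathers, with a median log2 fold change of 1.56 and 0 at an unadjusted p under 0.05 by limma, edgeR or DESeq2. The part of these cell types in the members' values was not tested. None of these markers was at 0 in all libraries of a group. The count of called members was 0 also with the choroid plexus or the thalamus and habenula level as a covariate, without replicates 1 and 2 and without replicates 3 and 4 of the sedentary fathers.

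In the authors' deposited table for the fathers, 0 of the 48 members had an adjusted p of 0.05 or less and 34 had an unmoderated log2 fold change above 0. In the authors' deposited table for the offspring, 0 of the 44 members with an adjusted p were called, and 27 of the 48 were above 0. The authors' deposited table gives Psmc6 unmoderated log2 fold changes of -0.10 in the fathers and -0.10 in the offspring. The design behind these tables is not given in the sources used here.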

How the data were processed

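RNA from 23 hippocampi was sequenced from poly(A)-selected, strand-marked libraries, per the labels' protocols. STAR 2.5.2a, RSEM 1.2.28, DESeq2 1.10 and the build GRCm38 are named in the submitters' processing notes, and file titles in the labels say that an outlier was left out. The sources used here do not give the strand setting of the counting. The values used are the signal the authors deposited, gene counts divided by 1 size factor per library, in a table for fathers and one for offspring; the median ratio of each library to the geometric mean was between 1.00258 and 1.00609, so the tables share 1 scale. The authors' deposited tables of comparisons hold log2 fold changes, p-values and a score (the Wald statistic), which were not recomputed; their design is not stated. From the deposited values, whole reads were recovered (100% of values within 0.1 of a whole number), used in edgeR 4.0.16 and DESeq2 1.42.0 as alternatives.

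The main test was limma 3.58.1 (R 4.3.3) on log2(normalized count + 1) with a mean-variance trend and Benjamini-Hochberg adjustment over all genes tested, at 0.05. Genes needed 10 normalized counts in 4 libraries of the fathers or of all 23, or in 7 libraries of the offspring; all 48 members passed in each fit. Fold changes understate those of low genes. Log2 ratios were tested by exact permutation over libraries (scipy 1.17.1). Lengths and GC content are of the longest GENCODE M21 principal transcript of each gene; each library's trend was a loess fit (span 0.3) of log2 deviations. These trend corrections were chosen after seeing the data. The models were also run on simulated counts with changes of known size. These were drawn with the same spread setting for every gene and without length or GC trends between libraries. The simulation therefore does not show how the models behave under such trends. Named were the 6 catalytic subunits and the 3 other members with the smallest p in each direction; of the accessory lists, the 2 genes with the smallest p, of which some are not reported here. The authors' lists of enriched terms and of called genes were not used.

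The members and lists were chosen with earlier results of these data known. Nothing states whether the libraries of a group come from separate litters, so p-values measure the spread between these samples. No 2 libraries of a group differed by less than counting noise (chi-square over degrees of freedom of 5.99 or more in 61 pairs). Alternatives were other pseudocounts, filters, normalizations, library weights and covariates, left-out libraries, and offspring whose titles share a first part averaged.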

Additional observations from a re-analysis of the deposited data

Results flagged for a closer look

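Among 100 groups of values (22 named genes and 3 log2 ratios in 4 groups each), 5 had 1 library standing far from the others by Dixon's criterion at the 95% level, and chance flags about 1 in 20 such groups. Psmd1 was at 6634 normalized counts in replicate 7 of the offspring of exercised fathers, where the next library had 6142. Psmd3 was at 4812 in replicate 4 of the exercised fathers, where the next had 4351. Psmd12 was at 2877 in replicate 4 of the sedentary fathers, where the next had 2737. The log2 ratio of Psmb10 to Psmb7 was -2.48 in replicate 2 of the exercised fathers, where the next was -2.37, and -2.53 in replicate 1 of the offspring of sedentary fathers, where the next was -2.40.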

How the results depend on the processing

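The count of called members was 0 as reported and in all 173 alternative fits over the 5 comparisons, where the smallest adjusted p of a member was 0.0689, between sedentary fathers and offspring of sedentary fathers. No paired analysis was possible because the replicate numbers only follow the order of deposit and pair no samples, and no title part is shared between groups. The counts over all genes moved with the setting: DESeq2 called 66 genes in the fathers, 39 in the offspring, 118 between exercised fathers and their group's offspring and 357 between the sedentary groups, where limma called 0, 0, 12 and 55; with 1 library left out, limma called 0 to 28 and 0 to 135 in the last 2. The limma count between the sedentary groups was 0 without replicates 3 and 4 of the sedentary fathers.

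Of 2073 values of named members under an alternative, 2016 had the sign of the main value. The 28 that did not outside the left-out libraries follow; those beyond 0.1 in size were all Psmb9 with the thalamus covariate. In the fathers, Psmb10 was at -0.00018 with median centring, -0.0050 with array weights, -0.0191 without the AD21 libraries, -0.0068 with the choroid plexus covariate, -0.0102 without replicates 1 and 2 of the sedentary fathers, -0.0128 with the length trend and -0.0389 with the GC trend removed; Psmb7 was at -0.0073 without the AD21 libraries and -0.0136 with the length trend removed; with the thalamus covariate Psmb9 was at 0.12 and Psmf1 at 0.0050. In the offspring, Psmb8 was at -0.0380 with array weights and -0.000701 with the GC trend removed. For the difference between generations, Psmb6 was at -0.0073, -0.0034 and -0.0243 and Psmb9 at -0.0714, -0.17 and -0.0415 with array weights, with the thalamus covariate and without replicates 3 and 4 of the sedentary fathers, and Psmb5 at 0.0477 without the AD21 libraries. Between exercised fathers and offspring of exercised fathers, Psmb5 was at -0.0018 with quantile normalization and -0.0083 without the AD21 libraries, Psmb9 at -0.0762 without these, and Psmg1 at 0.0168 with array weights. In the sedentary line, Psmb5 was at 0.0394 without the AD21 libraries and 0.0157 without replicates 1 and 2 of the sedentary fathers, and Psmb9 at -0.16 and Psmb10 at -0.0065 with the thalamus covariate.

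With 1 library left out at a time, the sign turned for the following, given as the lowest and highest values: in the fathers Psmb7 (-0.0073 to 0.0346) and Psmb10 (-0.0272 to 0.0384); in the offspring Psmb8 (-0.0282 to 0.0922); for the difference between generations Psmb5 (-0.0763 to 0.0012), Psmb6 (-0.0362 to 0.0427) and Psmb9 (-0.0478 to 0.26); in the exercised line Psmb5 (-0.0220 to 0.0555), Psmb9 (-0.0762 to 0.21), Psmb10 (-0.0641 to 0.0350), Psmg1 (-0.10 to 0.0185) and Psmc3ip (-0.15 to 0.0590); in the sedentary line Psmb5 (-0.0484 to 0.0085). The log2 ratio of Psmb8 to Psmb5 differed between groups by -0.0408 to 0.0707 among fathers and -0.0691 to 0.0575 among offspring, and that of Psmb10 to Psmb7 by -0.0312 to 0.0297 among fathers; no exact permutation p of a ratio was at or under 0.05 under any setting. The cause was not tested. Psmb9 had 29.2 to 66.0 normalized counts in the fathers and a log2 SD within their groups of 0.391; the part of counting error in it was not tested.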
